A study of Homo sapiens with 6 samples.

Results

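The question was which genes moved alike, 4 days after induction, in both KYSE70 lines with an inducible hairpin, the one against SOX2 and the one against TP63. KYSE70 is an established cell line from a squamous carcinoma of the human esophagus. All 6 libraries of the series were compared, and 10536 of the 48644 genes in the table, those with a mean of at least 1 RPKM (reads scaled by gene length and library size) over the 6 libraries, were tested. Every cell carried a stable pLKO-Tet-On vector and was grown in RPMI medium with serum. The groups were shSOX2 cells at day 0 without doxycycline (1 library), shSOX2 cells after 4 days of doxycycline at 50 ng/ml (2 libraries), shTP63 cells at day 0 without doxycycline (1 library) and shTP63 cells after 4 days at the same dose (2 libraries). No line without a hairpin against either gene was treated with doxycycline, and no day 4 library is without it. Suppression of SOX2 or TP63, expression of a hairpin, doxycycline itself and 4 more days in culture therefore cannot be told apart in a change that both lines share. The labels do not say whether a line is 1 clone or a pool.

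SOX2 and TP63 encode transcription factors that maintain basal squamous epithelium, and both genes lie in a region often amplified in squamous carcinomas. Cells that leave the cycle lower a shared set of genes: E2F factors switch on the enzymes of DNA replication at the start of S phase, and MYC drives the genes that build ribosomes. Growth-factor signals reach the nucleus through the ERK kinases, which raise AP-1 subunits such as FOSL1, while FOXO factors switch on growth-restraint genes when those signals weaken.

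Levels are given as log2(RPKM + 1), the scale on which the values were read, and changes are differences on that scale, so that a change understates the fold of a gene with a low level. RPKM is per length, so levels of different genes can be compared. The uninduced shTP63 library stood apart in its low values, with 16167 genes above 0 against 21530 to 23509 in the others, and 56 tested genes were at 0 there against at most 5 in any other library. The depth of the libraries is unknown. The labels do not say that libraries came from separate cultures, so the spread behind each p-value is that between libraries and may be technical. The numbers in the titles were read as replicate numbers but could stand for different hairpins, and both day 0 libraries carry the number 2. In what follows, day 0 values are given for the shSOX2 and then the shTP63 line, and day 4 values for shSOX2 replicates 1 and 2 and then shTP63 replicates 1 and 2. SOX2 stood at 6.25 and 5.69 at day 0, at 4.67 and 5.65 in the induced shSOX2 libraries and at 5.41 and 5.55 in the induced shTP63 libraries. TP63 stood at 3.61 and 3.99 at day 0, at 3.93 and 3.91 in the induced shSOX2 libraries and at 2.11 and 2.26 in the induced shTP63 libraries. SOX2 was below day 0 in all 4 induced libraries, and TP63 was below it in the shTP63 line and not in the shSOX2 line. Neither passed the limma test of the shared change, with adjusted p = 0.29 for SOX2 and 0.321 for TP63. Of the squamous markers, KRT5 was at 8.39 to 11.01 in all 6 libraries, while KRT14 (0.66 to 2.70) and KRT17 (0 to 1.83) were low in these cells.

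After 4 days, the genes that fell included 5 of DNA replication (among them UHRF1, RRM2 and CDC6), the keratins KRT6A, KRT6B and KRT6C, the AP-1 subunit gene FOSL1 and the hexokinase gene HK2. The genes that rose included 5 collagens, the ligand genes BMP4, WNT5A and WNT11, the complement protease gene C1S, and INSIG1 and SCD of sterol and fatty acid synthesis. The limma fit with the line as a covariate called 121 genes at an adjusted p under 0.05, which is 1.15% of those tested: 79 were higher (0.75%) and 42 were lower (0.399%). The smallest adjusted p was 0.0140, and the unadjusted p was under 0.05 for 2266 genes. The called genes were large changes: the median was 1.57 for the higher ones, with a range of 1.02 to 3.40, and -1.45 for the lower ones, the largest of which was -2.94. Without a test, 63 genes (0.598%) stood at least 2-fold above day 0 of their own line in all 4 induced libraries and 32 (0.304%) were at least 2-fold below it. Among the called genes, 56 of the 79 higher and 30 of the 42 lower ones met that rule. In bulk RNA a smaller share of cells that express a gene and less of its RNA per cell cannot be told apart. The number of calls depends on single libraries: limma called 0 genes without shSOX2 day 4 replicate 1 (2217 at an unadjusted p under 0.05), 0 without the shTP63 day 0 library (1091), 79 without shTP63 day 4 replicate 1 and 2 without the library of shSOX2 cells at day 0. The count was also 0 without the filter on low values (3315 at an unadjusted p under 0.05), 44 (17 higher, 27 lower) with a pseudocount of 5, 1 without the line covariate and 6 when each of the 4 groups had its own mean.

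The changes of the 2 lines can be set side by side because each line has its own day 0 library. Across all tested genes, which are not independent replicates, the mean changes of the lines had a Pearson correlation of 0.498, and 7020 genes (66.6%) had the same sign in both. The median change over all tested genes was -0.05 in the shSOX2 line and 0.00039 in the shTP63 line. The values were read as quantile-normalized, which gives all libraries a common distribution, so a median near 0 is largely set by that step. For the 79 higher genes the median was 1.44 in the shSOX2 line and 1.66 in the shTP63 line, and 46 of them changed more in the shTP63 line. For the 42 lower genes the medians were -1.36 and -1.53, and 26 changed more in the shTP63 line. The lines were within 1.5-fold of each other for 53 of the higher and 30 of the lower genes. The fit that made the calls gave both lines a single shared change, which favours genes whose lines moved alike. The likeness of the lines among called genes was therefore partly selected for. A test of the difference between the lines' responses called 0 genes by limma, with 479 at an unadjusted p under 0.05, so no gene here is shown to respond in one line and not in the other. That test left 2 residual degrees of freedom, and it called 5 genes without shTP63 day 4 replicate 2. It did not call TP63 itself, which changed by 0.31 in the shSOX2 line and by -1.81 in the shTP63 line. A count of 0 is therefore no evidence that the lines responded alike.

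**Figure D1:**
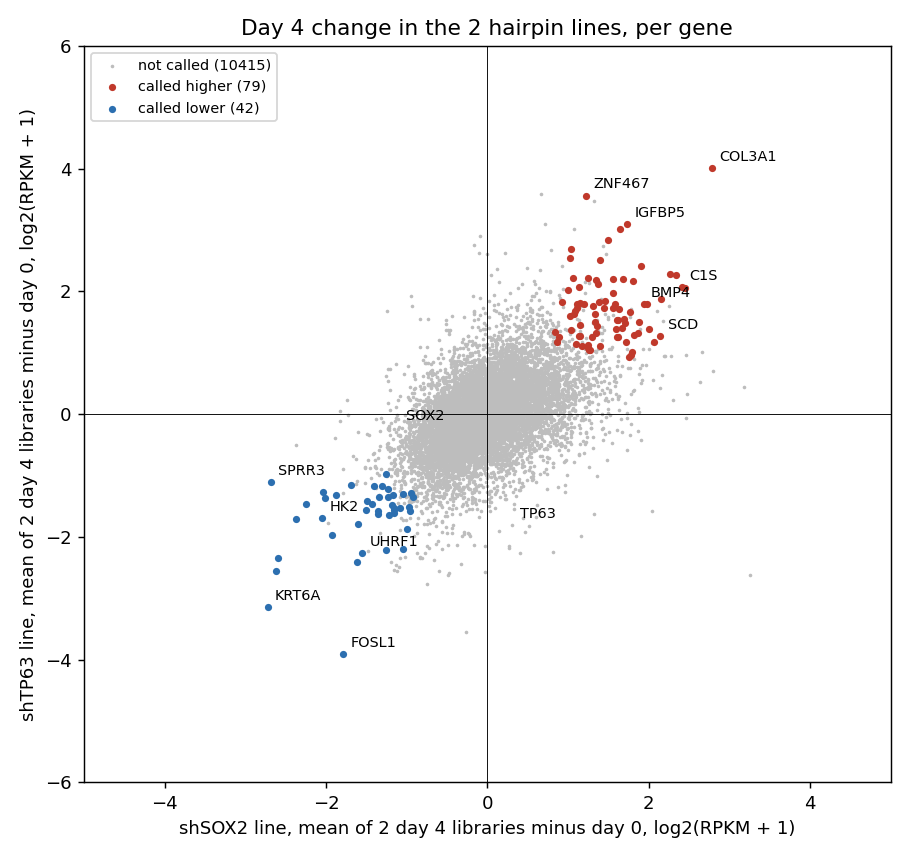
Change of each tested gene in the shSOX2 line (x axis) and the shTP63 line (y axis), both as the mean of 2 day 4 libraries minus day 0 on the log2(RPKM + 1) scale. The 79 genes called higher lie in the upper right, from 1.02 to 3.40 in the shared change, and the 42 called lower in the lower left; TP63 and SOX2, the hairpin targets, lie outside both groups.

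Most measured genes of DNA replication were below day 0 in all 4 induced libraries, and 5 passed the test. Of 53 tested genes of this list, 5 fell (limma adjusted p under 0.05) and 0 rose, against 0.399% and 0.75% of all tested genes, and 45 were below day 0 of their own line in all 4 induced libraries, against 23% of all tested genes. The groups did not overlap for 38 of them, all lower, against 14.2%. The median change was -0.91 over the list, beside -0.02 over all tested genes. In single induced libraries the list's median was -0.57 and -0.72 in the shSOX2 line and -0.86 and -1.33 in the shTP63 line. This list and the other gene lists were chosen with earlier results of these data known, so counts within them are no independent support. Counts of every list and family below are to be set beside the same shares. Of all tested genes, 0.75% were called higher and 0.399% lower. In all 4 induced libraries 19.4% were above and 23% below day 0 of their own line.

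UHRF1, which reads hemimethylated DNA and brings DNMT1 to new strands, fell by 1.91 ± 0.26 (limma SE, day 4 n = 4, day 0 n = 2, as for every change below; adjusted p = 0.0233). It was at 4.37 and 4.19 at day 0, at 2.70 and 2.93 in the induced shSOX2 libraries and at 1.77 and 2.09 in the induced shTP63 libraries. All 4 induced values lay more than 1 log2 unit below both day 0 values. RRM2, the regulated subunit of ribonucleotide reductase, went from 4.64 and 4.43 to 2.41, 3.02, 3.13 and 1.78 and fell by 1.95 ± 0.37 (adjusted p = 0.0448). Its induced values spread more widely than those of UHRF1 and stayed below both day 0 values, as the choice of named genes required. The licensing factor gene CDC6 fell by 1.47 ± 0.23 (adjusted p = 0.0296), the checkpoint mediator gene CLSPN by 1.23 ± 0.21 (0.0369) and GINS4, a subunit of the replicative helicase complex, by 1.17 ± 0.22 (0.0435). In the same direction and outside the list, limma called EXO1, a nuclease of replication and mismatch repair (-1.14), the histone chaperone gene DNAJC9 (-1.34), RCC1, the exchange factor of Ran on chromatin (-1.29), the cyclin gene CCNA1 (-1.43) and FAM111B (-1.24).

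The replicative helicase is built of 6 MCM subunits, of which 0 passed (5 at an unadjusted p under 0.05). The changes of MCM5, MCM7 and MCM4 were -1.34, -1.24 and -1.18, and 5 of the 6 subunits were lower in all 4 induced libraries, with MCM6 (-0.56, adjusted p = 0.319) as the exception. All 4 GINS subunits and 7 of 8 origin factors were lower in all 4 libraries, and so were 4 of 5 clamp loader subunits and 6 of 7 polymerase and primase subunits. Of the 3 subunits of the single-strand binding protein RPA, 1 was: RPA2 changed by -0.99 and RPA1 by 0.06. These subunit groups were drawn up after the calls were seen. PCNA, the sliding clamp, was at 5.79 and 6.49 at day 0 and at 4.92, 4.52, 5.11 and 4.48 at day 4, a change of -1.38 ± 0.29 that missed the threshold (adjusted p = 0.0621). TYMS, which makes the thymidine nucleotide, was at 9.12 and 9.52 at day 0 and at 6.08, 8.21, 8.21 and 7.27 at day 4 (-1.88 ± 0.51, adjusted p = 0.091).

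Promoters of these genes are shown because members of the list moved together. The 250 bases before the RefSeq start site are printed in GRCh38.p14, on the strand of the gene and with the E2F letters in capitals. The letters searched were TTTNGCGC and TTTCCCGC on both strands, and no stretch of sequence can match both. UHRF1 (chr19:4909251-4909500, plus strand) and DNAJC9 (chr10:73247256-73247505, minus strand) are the called genes with a whole match before the start. PCNA (chr20:5126623-5126872, minus strand) and MCM7 (chr7:100101398-100101647, minus strand) are the members of the list next in order of p with a match there.
UHRF1: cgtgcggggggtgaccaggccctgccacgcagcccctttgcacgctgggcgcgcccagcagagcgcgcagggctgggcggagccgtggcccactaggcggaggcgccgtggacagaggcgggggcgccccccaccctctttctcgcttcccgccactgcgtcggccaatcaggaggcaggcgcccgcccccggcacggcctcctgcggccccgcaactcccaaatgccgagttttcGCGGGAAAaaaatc
DNAJC9: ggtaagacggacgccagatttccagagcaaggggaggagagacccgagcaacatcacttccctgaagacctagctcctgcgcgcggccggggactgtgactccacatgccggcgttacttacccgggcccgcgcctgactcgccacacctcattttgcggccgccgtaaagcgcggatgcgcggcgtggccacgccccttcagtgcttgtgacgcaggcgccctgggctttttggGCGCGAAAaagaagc
PCNA: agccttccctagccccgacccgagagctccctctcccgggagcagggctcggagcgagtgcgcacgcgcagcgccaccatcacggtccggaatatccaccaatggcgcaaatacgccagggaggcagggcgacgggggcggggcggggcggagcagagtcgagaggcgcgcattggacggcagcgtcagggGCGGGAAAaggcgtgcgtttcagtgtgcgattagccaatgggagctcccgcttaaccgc
MCM7: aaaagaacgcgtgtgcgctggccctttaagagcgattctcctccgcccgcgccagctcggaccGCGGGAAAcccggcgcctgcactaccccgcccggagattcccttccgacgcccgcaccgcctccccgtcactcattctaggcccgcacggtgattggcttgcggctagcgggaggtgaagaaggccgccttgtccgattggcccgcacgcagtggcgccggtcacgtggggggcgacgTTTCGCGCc
The printed match begins 14 bases before the start in UHRF1, 15 in DNAJC9 and 59 in PCNA, and MCM7 holds 2 matches, at 187 and 9 bases.

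Over the 300 bases from 250 before to 50 after the start, the E2F letters stood in 25 of the 45 DNA replication genes with a promoter in the RefSeq table (55.6%). They stood in 6 of 30 genes called lower (20%), in 0 of 52 genes called higher, in 5.85% of the 6851 tested genes with a promoter and in 3.37% of all 35116 promoters. The 401 tested genes with these letters had a median change of -0.18 and 38.2% of them were lower in all 4 induced libraries, beside -0.02 and 23.6% for the 6450 without. A match is a description of the sequence only, and it is no evidence that a factor bound there. Within the list, the 25 genes with the letters had a median change of -0.92 and the 20 without them one of -0.76.

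Genes of mitosis moved less evenly than genes of S phase. Of 32 tested genes of G2 and M phase, 0 were called by limma (6 at an unadjusted p under 0.05) and 18 were lower in all 4 induced libraries. The CCAAT letters of mitotic promoters, searched on both strands, stood in 24 of the 28 with a promoter in the table (85.7%), beside 38% of tested and 34.6% of all promoters. The median change was -0.47, and its value was -1.50 in shTP63 day 4 replicate 2 and -0.13 to -0.23 in the other 3 induced libraries, so that library stood apart from the rest. CDC20, an activator of the anaphase-promoting complex, was at 6.54 and 6.28 at day 0 and at 5.50, 5.67, 5.23 and 3.95 at day 4 (-1.33 ± 0.37, adjusted p = 0.0915). MKI67, the common marker of cycling cells, was at 5.10 and 3.81 at day 0 and at 4.79, 5.29, 4.08 and 2.28 at day 4 (-0.35 ± 0.44, adjusted p = 0.689), and its groups overlapped.

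Replication-dependent histone genes had a median change of -1.18 over 54 tested genes. Of these, 36 were lower and 3 higher in all 4 induced libraries, against 23% and 19.4% of all tested genes. The 69 genes of the list summed to 598.9 RPKM in the shSOX2 and 1710 RPKM in the shTP63 day 0 library. At day 4 they summed to 406.9 to 561.5 RPKM, so the size of the fall rests largely on the shTP63 day 0 library. With 1 library left out the median ran from -1.94 to -0.49. The list's median was -0.49 in the shSOX2 line and -1.94 in the shTP63 line, and the difference between the lines was not tested for the list. HIST1H4C alone was called, at 5.63 and 6.43 at day 0 and at 4.50, 4.68, 4.07 and 4.39 at day 4 (-1.62 ± 0.31, adjusted p = 0.0448). The histone genes are near-identical copies and their RNA largely lacks a poly(A) tail, so single members are uncertain in poly(A) libraries.

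Among the lists for ribosome building and protein supply, few single genes passed while most members of some lists were below day 0. Of 29 tested genes of ribosome biogenesis and MYC targets, 0 were called by limma, 22 had an unadjusted p under 0.05 and 28 were lower in all 4 induced libraries, with NHP2 as the exception. The median change was -0.85, and the medians of the single induced libraries lay between -0.56 and -1.02. RRP9, a small nucleolar ribonucleoprotein, was at 4.40 and 4.65 at day 0 and at 3.63, 3.35, 3.21 and 3.30 at day 4 (-1.15 ± 0.24, adjusted p = 0.0621). NCL, which encodes nucleolin, changed by -1.13 ± 0.26 (adjusted p = 0.0674). MYC itself changed by -0.63 ± 0.33 (adjusted p = 0.295). Outside that list, the nucleolar helicase gene DDX21 fell by 1.29 ± 0.25 and EBNA1BP2, an assembly factor of the large ribosomal subunit, by 1.43 ± 0.25, and SURF2 (-1.53), CCDC86 (-1.34) and CCDC137 (-1.34) were called as well. The proteins of the finished ribosome are a separate list: over 82 cytosolic ribosomal protein genes the median was -0.01 (0.02 with median-ratio scaling), 0 were called by limma and 0 had an unadjusted p under 0.05.

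The E-box letters CACGTG, the sequence MYC and MAX bind, stood in 9 of 24 ribosome biogenesis promoters (37.5%), in 10.8% of tested promoters and in 7.26% of all promoters of the same length. They stood in 3 of 30 genes called lower (10%) and in 4 of 52 called higher (7.69%). Within the list, the 9 genes with the letters had a median change of -0.847 and the 15 without them one of -0.775. Over all tested genes the medians were -0.10 with the letters and -0.02 without. The list was made partly of MYC targets, so its share is no result about the genes that moved. UTP20 (chr12:101279855-101280104, plus strand), a processing factor of the small subunit, and SRM (chr1:11060019-11060268, minus strand), spermidine synthase, are shown with the letters in capitals. Both are among the 4 members of the list with the smallest p and hold the letters before the start.
UTP20: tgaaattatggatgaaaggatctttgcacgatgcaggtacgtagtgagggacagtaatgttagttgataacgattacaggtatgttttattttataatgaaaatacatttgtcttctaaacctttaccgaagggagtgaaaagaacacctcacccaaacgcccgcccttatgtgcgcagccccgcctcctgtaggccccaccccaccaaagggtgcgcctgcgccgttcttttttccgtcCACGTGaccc
SRM: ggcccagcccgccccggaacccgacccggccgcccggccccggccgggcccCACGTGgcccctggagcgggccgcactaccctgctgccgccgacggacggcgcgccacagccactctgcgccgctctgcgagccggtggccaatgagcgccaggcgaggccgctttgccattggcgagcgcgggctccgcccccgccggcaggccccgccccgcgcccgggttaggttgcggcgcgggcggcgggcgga
UTP20 was at 1.98 and 2.03 at day 0 and at 1.37, 0.95, 0.97 and 0.84 at day 4, and SRM at 5.50 and 5.82 at day 0 and at 4.73, 4.55, 4.43 and 4.63 at day 4. In both genes the 4 induced values lay below both day 0 values, and neither passed (adjusted p = 0.0645 and 0.0673).

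Mitochondrial ribosomal protein genes had a median change of -0.38 over 73 genes, 43 of them lower in all 4 induced libraries, and mitochondrial chaperones and proteases one of -0.49 over 16 genes, 8 of them lower. In both lists limma called 0 genes, with 14 and 5 at an unadjusted p under 0.05. Nuclear-encoded oxidative phosphorylation genes had a median of 0.18 over 74 genes (0.0036 in the shSOX2 line and 0.39 in the shTP63 line). Of these, 16 were higher in all 4 libraries, a share near the 19.4% of all tested genes, and 0 were called by limma (6 at an unadjusted p under 0.05). The 8 mitochondrially encoded genes had a median of -0.03, which turned to 0.008 with median-ratio scaling, and 0 calls (2 at an unadjusted p under 0.05). By gene-name families, which were drawn up after the calls were seen, 27 of 34 proteasome subunit genes were lower in all 4 libraries, with a median of -0.53, 0 called by limma and 12 at an unadjusted p under 0.05. The ATPase subunit gene PSMC3 had the largest of these changes, at 6.21 and 6.33 at day 0 and 5.23, 5.01, 5.38 and 5.11 at day 4 (-1.09 ± 0.24, adjusted p = 0.0646). Of 9 alpha and beta tubulin genes, 8 were lower in all 4 libraries. TUBB4B fell by 1.45 ± 0.23 (adjusted p = 0.031) and TUBB2A by 1.65 ± 0.32 (0.0472), while TUBA1A changed by 0.04. Of 24 genes of nucleotide synthesis, 18 were lower in all 4 libraries, and PAICS, an enzyme of purine synthesis, fell by 1.31 ± 0.26 along with RRM2. HSP90AA1, the inducible HSP90 chaperone gene, fell by 1.36 ± 0.25, from 7.37 and 7.21 to 6.08, 6.33, 5.62 and 5.69.

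HK2, a hexokinase that commits glucose to glycolysis, fell by 1.87 ± 0.25 (adjusted p = 0.0233). It was at 3.70 and 3.34 at day 0 and at 1.96, 1.34, 1.70 and 1.60 at day 4, with a gap of more than 1 log2 unit between the groups. The other 18 tested genes of glucose uptake and glycolysis did not pass. The median of the list was -0.38, 9 of its 19 genes were lower and 0 higher in all 4 induced libraries, and 7 had an unadjusted p under 0.05. Single changes ran from -1.87 to 1.06, so members lay on both sides. PFKP, the platelet phosphofructokinase, was at 4.67 and 4.86 at day 0 and at 3.51, 4.02, 4.08 and 4.38 at day 4 (-0.77 ± 0.26, adjusted p = 0.136), and LDHA, a lactate dehydrogenase subunit gene, changed by -0.71 ± 0.26 (0.158).

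The keratins of activated and wounded epithelium were among the largest falls. KRT6A was at 9.61 and 10.31 at day 0, at 6.64 and 7.13 in the induced shSOX2 libraries and at 6.58 and 7.74 in the induced shTP63 libraries, a fall by 2.94 ± 0.34 (adjusted p = 0.0225). KRT6C fell by 2.59 ± 0.36 and KRT6B by 2.47 ± 0.36. These 3 genes are near-identical copies that can share reads, so their values are not independent. SPRR3, a precursor of the cornified envelope, was at 2.73 and 1.16 at day 0 and at 0.06, 0.03, 0 and 0.10 at day 4 (-1.90 ± 0.31, adjusted p = 0.0333); its day 0 values differed by more than 1 log2 unit between the lines. Of 12 tested stress keratin and cornified envelope genes these 4 fell and 0 rose. The median of the list was -0.62, with members on both sides, and it was -0.06 in the shSOX2 line and -0.67 in the shTP63 line. Leaving out 1 library moved it between -0.77 and -0.06. KRT75, a hair follicle keratin, was at 0.46 and 4.16 at day 0, and its change of -1.91 ± 0.59 was -0.27 in the shSOX2 line and -3.56 in the shTP63 line. EMP1, a membrane protein gene of squamous epithelium, changed by -1.19 ± 0.32, CNFN, the gene of cornifelin, by 1.35 ± 0.30 and KRT13, the keratin of mucosal differentiation, by 0.87 ± 0.27, and none of these 4 passed. Over 19 squamous keratinocyte markers the median was -0.20, 1 fell (KRT6A) and 3 had an unadjusted p under 0.05. That median was 0.08 in the shSOX2 line and -0.22 in the shTP63 line, and it ran from -0.23 to 0.08 with 1 library left out. The calcium-binding protein gene S100A2 was at 7.51 and 7.92 at day 0 and at 5.93, 6.12, 4.79 and 6.58 at day 4 (-1.86 ± 0.44, adjusted p = 0.0704). The simple-epithelial keratins KRT8 (-0.95 ± 0.31, adjusted p = 0.131) and KRT18 (-1.20 ± 0.28, 0.0694) were lower in all 4 libraries as well. The 20 hemidesmosome and basal adhesion genes had a median of 0.0032 (0.10 in the shSOX2 line and -0.25 in the shTP63 line), with 0 called by limma and 7 at an unadjusted p under 0.05.

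FOSL1, an AP-1 subunit that ERK signals raise and stabilise, fell by 2.85 ± 0.41 (adjusted p = 0.0247). It was at 4.49 and 5.38 at day 0, at 2.61 and 2.79 in the induced shSOX2 libraries and at 1.45 and 1.48 in the induced shTP63 libraries. Its change was -1.79 in the shSOX2 line and -3.91 in the shTP63 line, and the test of that difference did not pass (adjusted p = 0.995). UPP1, uridine phosphorylase, fell by 2.01 ± 0.28 (0.0233) and the ERK phosphatase gene DUSP7 by 1.27 ± 0.25 (0.0468). Together these were 3 of 25 tested genes of ERK output and AP-1, with 0 higher, against 0.399% and 0.75% of all tested genes. The list was chosen with earlier results of these data known, so the count is no independent support. Another 8 genes of the list were lower in all 4 libraries without passing, among them ETV4 (-1.52 ± 0.36), DUSP6 (-0.87), DUSP4 (-0.82) and JUN (-1.14), and 4 were higher in all 4, JUNB (0.90), JUND (0.59), SPRY1 (0.40) and FOSL2 (0.47). The largest positive change in the list was 1.73, in another member that was neither called nor higher in all 4 libraries. The list's median was -0.72 over both lines, -0.24 in the shSOX2 line and -0.88 in the shTP63 line. MAFF, a small MAF factor, fell by 1.43 ± 0.28.

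Other large falls were CTSL2, the cysteine protease cathepsin V (-2.05 ± 0.28), CNN1, the actin-binding calponin (-1.86 ± 0.24), and KIAA1199, a hyaluronan-degrading protein (-1.70 ± 0.20). CTSL2 was at 7.15 and 5.00 at day 0 and at 4.56, 4.99, 3.11 and 3.45 at day 4, so the lines differed at the start by about as much as each fell. NRP2, a receptor of class 3 semaphorins and VEGF, fell by 1.60 ± 0.22, from 2.74 and 2.03 to 0.77, 0.94, 0.53 and 0.90. CREG2, a secreted glycoprotein gene, changed by -1.69 ± 0.29. The clone-named transcript RP11-424C20.2 changed by -1.73 ± 0.28; reads of overlapping genes cannot be told apart from its own, since no strand-specific step is stated.

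**Figure D2:**
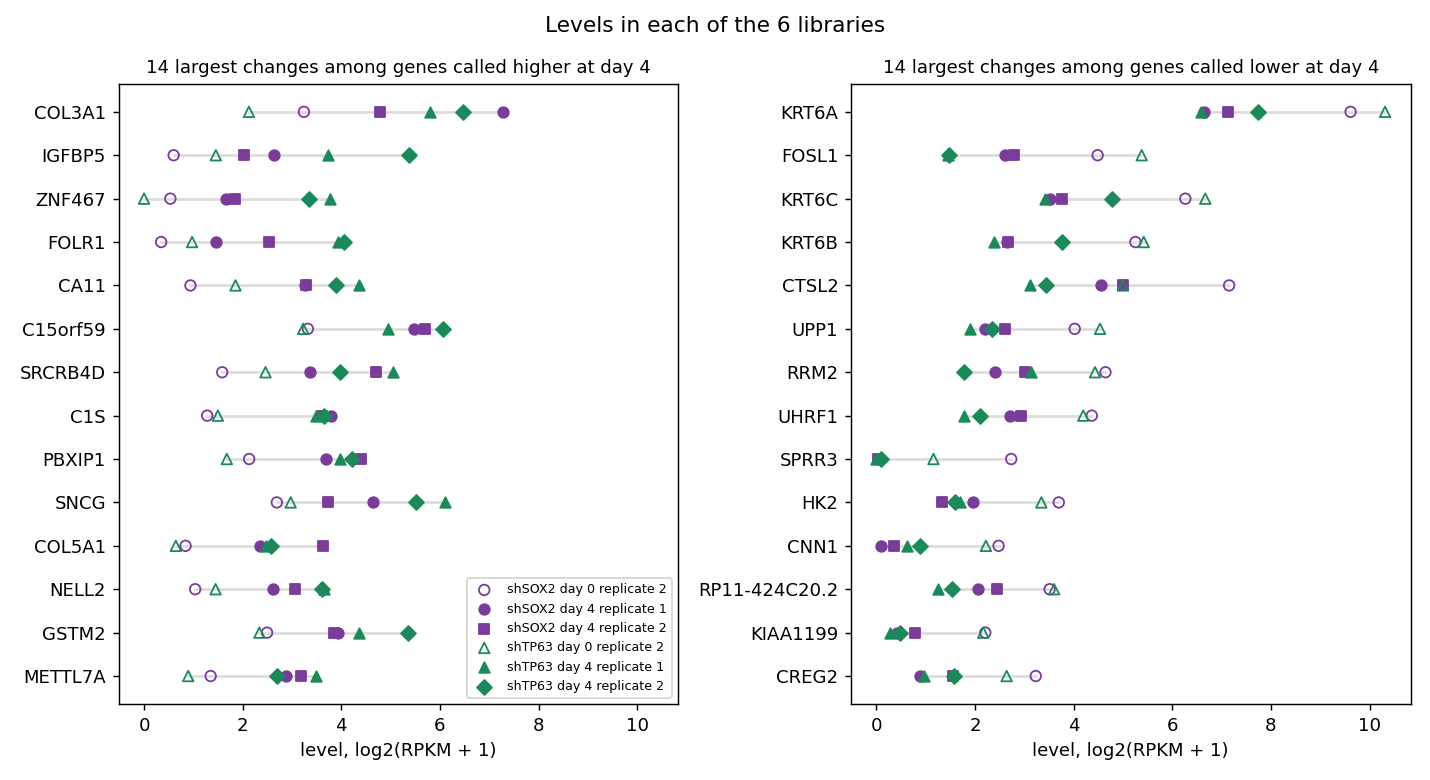
Level in each of the 6 libraries, log2(RPKM + 1), for the 14 largest changes among genes called higher (left) and called lower (right); open symbols are day 0 and filled symbols day 4, purple for shSOX2 and green for shTP63. The genes were chosen by a rule that requires the 4 filled symbols to lie on one side of both open ones. The gap is narrow for CTSL2, where the values nearest each other are 4.99 and 5.00.

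On the higher side, the largest change was that of a matrix gene. COL3A1, a fibrillar collagen, rose by 3.40 ± 0.60 (adjusted p = 0.0389): it was at 3.24 and 2.13 at day 0, at 7.29 and 4.78 in the induced shSOX2 libraries and at 5.79 and 6.47 in the induced shTP63 libraries. The induced shSOX2 values were further apart than the induced shTP63 values. All 4 lay above both day 0 values, as the choice of named genes required. COL5A1, which starts the assembly of collagen fibrils, was at 0.84 and 0.65 at day 0 and at 2.36, 3.63, 2.47 and 2.58 at day 4 (2.02 ± 0.33, adjusted p = 0.0314). COL4A5, a basement membrane chain, rose by 1.48 ± 0.24, COL6A1, a chain of beaded filaments, by 1.35 ± 0.25 and COL9A2, a chain of cartilage collagen, by 1.28 ± 0.20. Of 16 tested collagen genes these 5 rose, 0 fell and 11 were higher in all 4 induced libraries, against 19.4% of all tested genes, and the median was 0.83. The collagen family was drawn up after the calls were seen. COL5A1 and COL9A2 were under 1 RPKM in both day 0 libraries. They entered the test only through their day 4 values and could be tested only as rises. COL7A1 (-0.46), COL4A2 (-0.26), COL18A1 (-0.10) and COL4A1 (-0.05) were the members with a negative change. LAMB2, a laminin chain (1.64 ± 0.32), MMP11, a matrix metalloprotease gene (1.60 ± 0.31), and CCDC80, a secreted matrix-binding protein gene (1.60 ± 0.25), rose too.

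The 25 fibroblast and mesenchymal markers hold several of these collagens. Of the 9 tested, 3 rose (COL3A1, COL5A1 and COL6A1), 0 fell, 6 were higher in all 4 libraries and the median was 0.91. The summed level of the list was 38.1 to 39.0 RPKM at day 0 and 98.05 to 228 RPKM at day 4. Members of the list differed widely in level, in log2(RPKM + 1). COL1A2 was at most 0.0029, DCN at most 0.017, LUM at most 0.029, PDGFRA at most 0.023 and FAP at 0 in all 6 libraries, and VIM was at 0.20 to 0.54. COL1A1 was at 1.49 and 1.54 at day 0 and at 1.89 to 2.68 at day 4. THY1, a surface glycoprotein gene, was at 0.82 and 1.25 at day 0 and at 0.84 to 2.61 at day 4, and FN1, fibronectin, at 0.18 and 0.88 and at 0.70 to 1.35. CDH2, N-cadherin, was at 1.94 to 3.06 and SNAI2 at 1.86 to 3.20 over the 6 libraries, with overlapping groups. Of the 25, 5 to 9 were at 0 at day 0 and 4 to 5 at day 4. The 17 leukocyte and endothelial markers summed to 3.96 to 7.33 RPKM at day 0 and to 1.85 to 3.00 RPKM at day 4. The 20 simple and glandular epithelial markers summed to 269.7 to 312.3 RPKM at day 0 and to 96.5 to 213.2 RPKM at day 4. That sum is mostly KRT8, at 6.203 to 7.915 in log2(RPKM + 1), and KRT18, at 4.564 to 6.147. Every other member was at most 1.352, and the glandular markers CDX1, CDX2, TFF1 and TFF2 were at 0 in all 6 libraries. The part of fibroblasts or other cell types in the changes of matrix genes was not tested.

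Several genes of secreted signals and their receptors rose. They were put together after the calls were seen, with no count of all such genes tested, so nothing is read from their number. BMP4, a ligand of the BMP branch of TGF-beta signals, was at 0.76 and 1.40 at day 0 and at 2.44, 2.96, 3.29 and 3.08 at day 4 (1.86 ± 0.23, adjusted p = 0.0225). Of 21 tested genes of the TGF-beta and BMP response, BMP4 rose, 0 fell and 9 were higher in all 4 libraries, and the median was 0.43. ID3, a direct BMP target, changed by 0.99 ± 0.28 (adjusted p = 0.0947) and SMAD6, a feedback inhibitor, by 0.83 ± 0.24 (0.102). Among Wnt genes the ligands WNT11 (1.89 ± 0.29) and WNT5A (1.26 ± 0.24) and the receptor FZD2 (1.40 ± 0.22) rose. FZD2 and WNT5A were the 2 of 24 genes of the Wnt and Notch list that passed; WNT11 is no member of it, and the median of the list was 0.23. WNT5A-AS1, named for the opposite strand of WNT5A, was called as well (1.44 ± 0.23), and the 2 may share reads. Of 3 tested class 3 semaphorins, SEMA3F (1.59 ± 0.23) and SEMA3C (1.55 ± 0.24) rose and SEMA3B changed by 0.68 ± 0.25 (adjusted p = 0.166). IGFBP5, which binds insulin-like growth factors, was at 0.60 and 1.46 at day 0, at 2.64 and 2.02 in the induced shSOX2 libraries and at 3.73 and 5.38 in the induced shTP63 libraries (2.41 ± 0.46, adjusted p = 0.0448).

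C1S, a serine protease of the classical complement pathway, and CA11, a carbonic anhydrase-related protein gene, shared the smallest adjusted p (0.0140). C1S was at 1.28 and 1.50 at day 0 and at 3.79, 3.61, 3.49 and 3.64 at day 4 (2.24 ± 0.23). CA11 was at 0.94 and 1.85 at day 0 and at 3.26, 3.29, 4.36 and 3.89 at day 4 (2.30 ± 0.23). C1R, the protease that activates C1S, was at 0.43 and 1.04 at day 0 and at 3.61, 2.57, 2.30 and 1.81 at day 4 and did not pass (1.84 ± 0.40, adjusted p = 0.0645). Of 10 tested complement and acute phase genes C1S alone was called, 6 were higher in all 4 libraries and the median was 0.82. The complement inhibitor gene CD59 (1.53 ± 0.30) missed the threshold at an adjusted p of 0.0505. MHC class I presentation had a median of 0.54 over 11 genes with 0 called by limma (6 at an unadjusted p under 0.05), with the loading chaperone gene TAPBP at 1.33 ± 0.27 (adjusted p = 0.0543) and B2M, its light chain gene, at 1.07 ± 0.24 (0.0647). The type I interferon response had a median of 0.66 over 11 genes with 0 called (4 at an unadjusted p under 0.05). Its medians within the lines were lower, 0.23 for shSOX2 and 0.27 for shTP63, and with 1 library left out it ran from 0.23 to 0.69. Its largest change was IFITM1, at 2.16 and 3.47 at day 0 and at 4.25, 4.64, 4.32 and 4.52 at day 4 (1.62 ± 0.32, adjusted p = 0.052).

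Of 29 tested genes of sterol and fatty acid synthesis, INSIG1 and SCD rose, 0 fell, 16 were higher and 0 lower in all 4 induced libraries, and the median was 0.59. INSIG1, which holds the SREBP factors back in the endoplasmic reticulum, was at 1.63 and 1.72 at day 0 and at 3.24, 2.94, 3.83 and 3.31 at day 4 (1.66 ± 0.25, adjusted p = 0.0282). SCD, the desaturase that makes monounsaturated fatty acids, was at 5.38 and 5.11 at day 0 and at 7.24, 7.81, 6.23 and 6.53 at day 4 (1.71 ± 0.30, adjusted p = 0.0389). The CCAAT letters stood in 15 of 21 promoters of the list (71.4%), beside 38% of tested promoters. The sterol oxidase gene MSMO1 (1.17) and the SREBP genes SREBF2 (1.01) and SREBF1 (1.01) were higher in all 4 libraries without passing. The fatty acid synthase gene FASN (-0.09) and the sterol enzyme genes LSS (0.29) and MVD (0.01) were mixed between libraries.

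Of the FOXO target and quiescence genes, 3 rose. BTG2, an antiproliferative gene, was at 2.08 and 2.61 at day 0 and at 3.93, 3.33, 4.21 and 4.97 at day 4 (1.77 ± 0.30, adjusted p = 0.0369). TXNIP, which restrains glucose uptake, was at 4.31 and 3.71 at day 0 and at 5.46, 5.22, 6.17 and 6.62 at day 4 (1.86 ± 0.37), at the edge of the threshold with an adjusted p of 0.04995. With YPEL3 (1.16 ± 0.21) these were 3 of 18 tested FOXO target and quiescence genes, of which 0 fell, 13 were higher and 3 lower in all 4 libraries, and the median was 0.67. KLF6 (-0.78), IRS2 (-0.64) and GADD45A (-0.32) were the lower ones. BTG2 was also the only called gene among 25 of the p53 response, whose median was 0.12. CDKN1A, the p53 target that blocks cyclin-dependent kinases, was at 3.32 and 4.24 at day 0 and at 3.74, 3.22, 5.67 and 5.73 at day 4, higher in the shTP63 line and mixed in the shSOX2 line. Outside the lists, TSC22D3, a glucocorticoid-induced gene (1.43 ± 0.24), DBP, a circadian transcription factor gene (1.77 ± 0.31), MAFA (1.72 ± 0.22), FOXO6 (1.49 ± 0.25) and ULK1, the kinase that starts autophagy (1.16 ± 0.21), rose. ZNF467, a zinc-finger factor gene, was at 0.53 and 0 at day 0 and at 1.67, 1.85, 3.78 and 3.35 at day 4 (2.39 ± 0.44); its 0 is in the library with the fewest genes above 0.

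Further large rises were FOLR1, the folate receptor (2.33 ± 0.37), C15orf59 (2.27 ± 0.32), SRCRB4D, a scavenger-receptor-domain gene (2.25 ± 0.41), PBXIP1, a partner of PBX factors (2.16 ± 0.28), SNCG, gamma-synuclein (2.16 ± 0.38), NELL2, a secreted glycoprotein (1.99 ± 0.23), and METTL7A (1.94 ± 0.28). FOLR1 was at 0.35 and 0.97 at day 0 and at 1.46, 2.53, 3.93 and 4.05 at day 4. All its induced values lay above both day 0 values, as the choice of named genes required. GSTM2, a glutathione S-transferase, rose by 1.96 ± 0.35 and GSTA4 by 1.08 ± 0.20. They are 2 of 13 genes of that family, against 0.75% of all tested genes called higher. In all 4 libraries 7 of the 13 were higher, against 19.4% of all tested genes. That family was drawn up after the calls were seen. GSTM2 resembles other GSTM genes and may share their reads. The NRF2 and glutathione list had a median of 0.38 over 26 genes (0.11 in the shSOX2 line and 0.48 in the shTP63 line) and 0 called by limma (5 at an unadjusted p under 0.05). Of 31 lysosomal genes 15 were higher in all 4 libraries, against 19.4% of all tested genes. SMPD1, acid sphingomyelinase (1.61 ± 0.30), and PLD3 (1.40 ± 0.27) rose, and 0.75% of all tested genes were called higher. The lysosomal group was also drawn up after the calls were seen. The cell-surface genes GJA1, connexin 43 (1.73 ± 0.34), ICAM5 (1.59 ± 0.24) and ALCAM (1.42 ± 0.24) rose as well. Another 8 genes called higher are antisense or clone-named transcripts and 3 are small nucleolar RNAs, whose reads may come from the genes that overlap them.

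**Figure D3:**
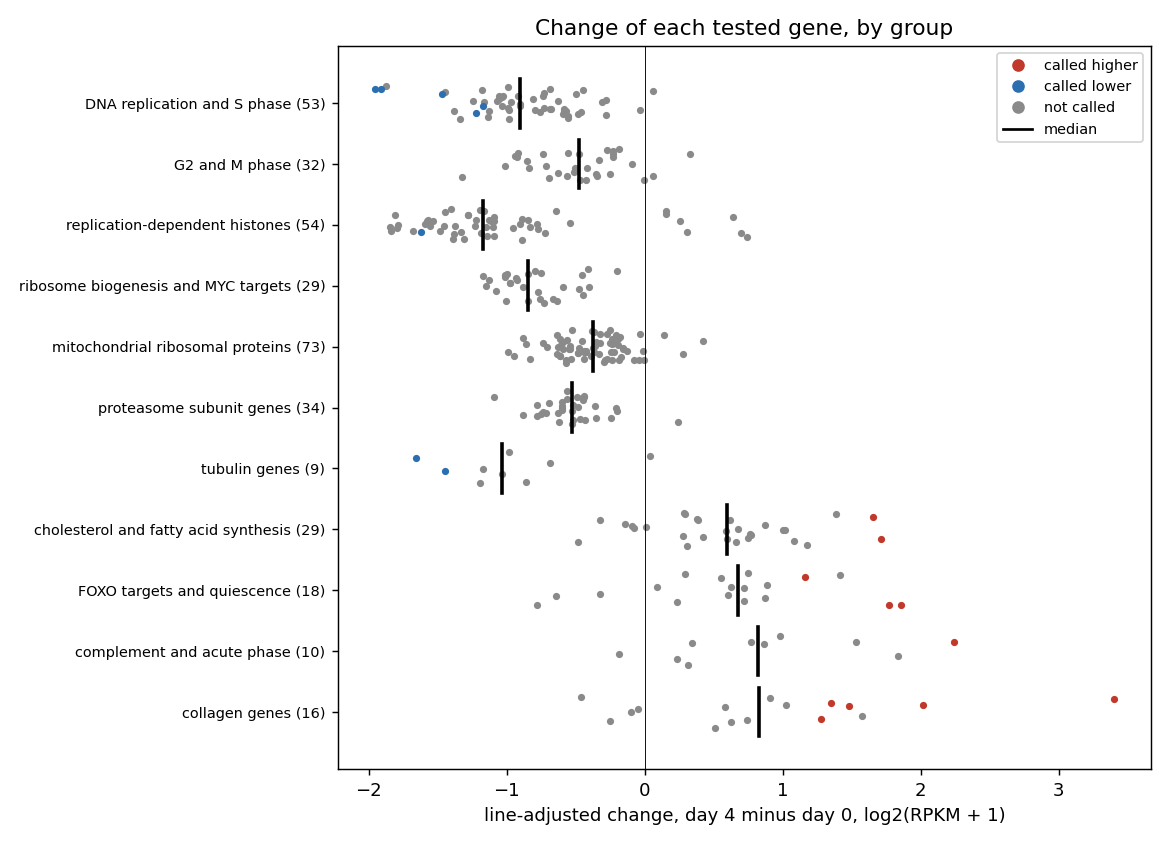
Line-adjusted change (day 4 minus day 0, log2(RPKM + 1)) of every tested gene in 11 groups; red and blue points were called higher and lower, grey ones were not called, and the black bar is the median. Medians run from -1.18 for histones to 0.83 for collagens, and most members of each group are grey.

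The ATF4 and integrated stress response list had medians of opposite sign in the lines: 0.49 in the shSOX2 line and -0.16 in the shTP63 line. Limma called 0 of its 37 genes, 9 had an unadjusted p under 0.05 and the difference between the lines was not tested for the list. NUPR1, a stress-induced chromatin protein, had the largest change there, at 2.22 and 3.75 at day 0 and at 3.76, 5.17, 5.03 and 6.01 at day 4 (2.01 ± 0.42, adjusted p = 0.0593). NF-kB and inflammatory cytokine genes had a median of -0.12 over 11 genes, 0 called and 1 at an unadjusted p under 0.05. The shSOX2 line had a median of 0.44 in that list and the shTP63 line one of -0.16.

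**Figure D4:**
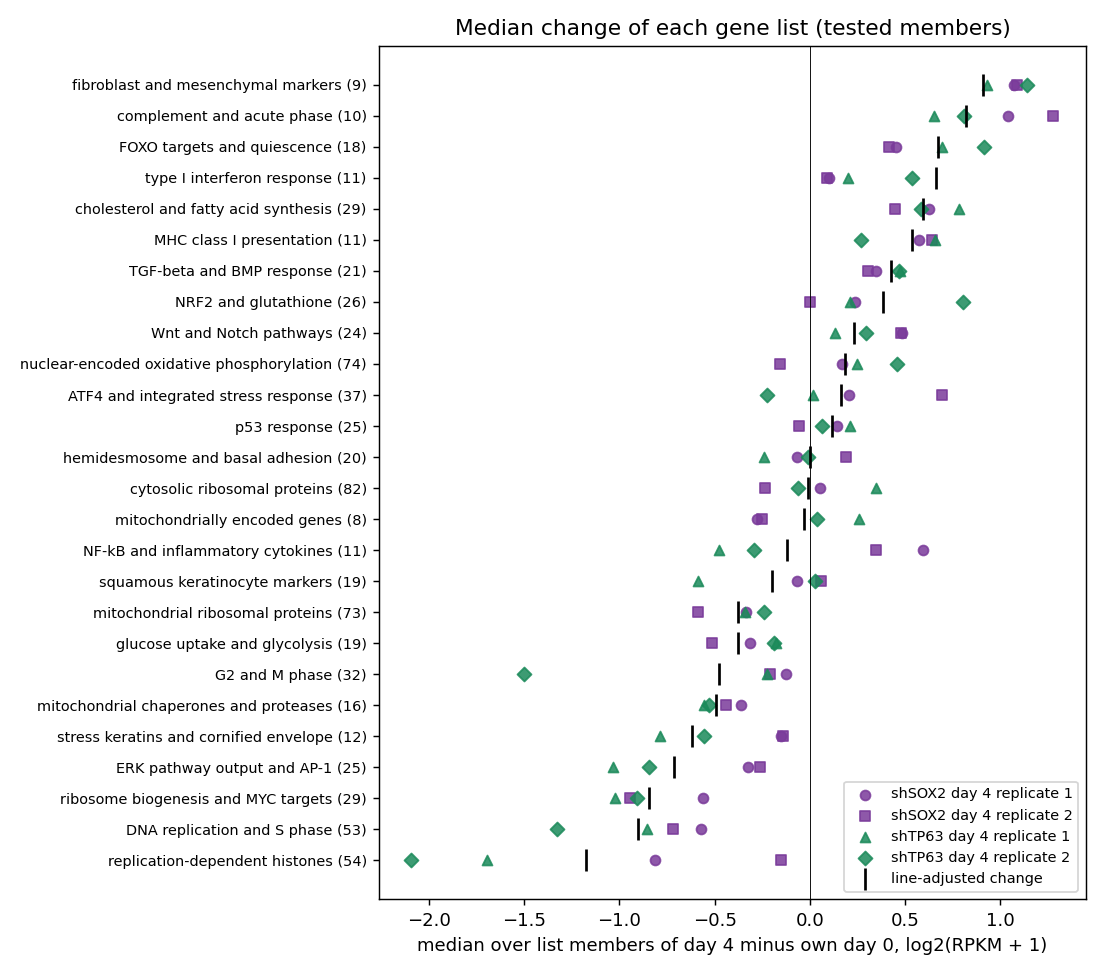
Median change of the tested members of each gene list in each induced library against day 0 of its own line, with the number of tested members in parentheses; the black bar is the median of the line-adjusted changes. For ribosome biogenesis, DNA replication and sterol synthesis the 4 libraries lie on one side of 0, while the ATF4 and NF-kB lists and cytosolic ribosomal proteins have libraries on both sides.

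Called genes on the 2 sides started from different levels. The median day 0 level was 1.58 for the 79 higher genes and 3.86 for the 42 lower ones, beside 2.36 for all tested genes. Because the filter used the mean of all 6 libraries, a gene that was near 0 at day 0 entered the test only through its day 4 values. Among the genes called higher, COL5A1, COL9A2, FOLR1 and ZNF467 are examples, under 1 RPKM in both day 0 libraries. The same holds for falls. SPRR3, CNN1, KIAA1199, NRP2 and FAM111B were under 1 RPKM in all 4 induced libraries and entered only through their day 0 values. The spread between libraries of 1 kind gives the scale of these changes: 487 tested genes were at least 2-fold apart between the day 0 libraries of the 2 lines, 514 between the induced shSOX2 libraries and 551 between the induced shTP63 libraries.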

How the data were processed

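Poly(A) RNA of 6 libraries was copied into randomly primed cDNA and sequenced (HiSeq), per the labels' protocols. The authors deposited 1 table of 48644 genes whose name gives RPKM. Its values fit log2(RPKM + 1), and base 2 was assumed; the deposited log2 values share a highest value of 13.365 in all libraries and were read as quantile-normalized, from the values. The planned analysis allowed for linear RPKM, but the deposited values were already log2 and were tested directly. The logarithm was undone to get linear values. The submitters' processing notes name hg19; aligner, counter and annotation: not given in the sources used here. Depth is unknown, so no counting error can be given.

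Genes with a mean linear value of at least 1 were fitted with limma 3.58.1 in R 4.3.3 (line plus day, mean-variance trend, 3 residual degrees of freedom), two-sided, with Benjamini-Hochberg adjustment over 10536 genes and calls at an adjusted p under 0.05. The difference of the lines' responses was a contrast of 4 group means, which assumes that a lone day 0 library varies as much as a pair does. The fits were tested on simulated data. The members and the 28 gene lists were chosen with earlier results of these data known, and the groups of called genes and the gene families after the calls. Named by rule were SOX2, TP63, the 14 called genes per direction that changed most and whose groups do not overlap, and the 4 list members of smallest p; called genes beyond these and other list members were chosen after their values were seen. The lists of markers are given by their summed levels. Some genes of the lists are not reported here. In the marker lists with few tested genes, simple and glandular epithelium had 3 tested genes with a median of -0.95 and leukocyte and endothelial markers 1, CD68, at -1.34. Promoters came from RefSeq (GRCh38.p14), matched by symbol for 52 of 79 genes called higher and 30 of 42 called lower, and no coordinates of hg19 are printed. Alternatives were other filters, a pseudocount of 5, median-ratio scaling, each library left out, the libraries numbered 2 alone, a replicate block, no line covariate, group means and no trend.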

Additional observations from a re-analysis of the deposited data

How the results depend on the processing

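The count of called genes, 121, was within 1.5 times of that value with a mean RPKM of at least 5 (97), with median-ratio scaling (89), with no mean-variance trend (123), and in 2 settings chosen after seeing the data, only genes above 0 in all libraries (122) and leaving out histone, mitochondrial and structural RNA genes (127). It moved to 0 without a filter (3315 genes at an unadjusted p under 0.05), to 44 with a pseudocount of 5, to 1 without the line covariate, to 6 with 4 group means and to 400 with only the 4 libraries numbered 2, of which 117 were among the 121 and which left 1 residual degree of freedom. Leaving out 1 library at a time gave 0 to 100 calls. The count of genes at least 2-fold apart in all induced libraries, 95, was 23 with a pseudocount of 5, 255 with the libraries numbered 2 and 125 to 618 with 1 library left out; fewer libraries make that rule easier to meet. For the difference between the lines the count was 0 to 5 with 1 library left out. With the replicate number as a replicate block limma called 13 genes, 11 higher and 2 lower. The numbers are not shown to pair the libraries, since replicate 1 minus replicate 2 correlated across genes at -0.07 between the lines, and only the day 4 groups have both numbers. The 28 called genes named by size kept their direction in every one of the 17 alternatives that tested them. They were chosen with all 4 day 4 values beyond both day 0 values, so their direction could hardly turn. The kept direction is therefore no support. The number of these 28 genes that kept their call ran from 0 to 28. Of the medians of gene lists, 47 values moved by more than the spread between induced libraries and 426 did not, and 339 values of single genes lost a call and 50 gained one. Leaving out 1 library turned the sign of the median of 6 lists: ATF4, NF-kB, cytosolic ribosomal proteins, hemidesmosome, mitochondrially encoded and squamous genes. The cause of these moves was not tested beyond fewer genes or libraries. The depth is unknown, so low levels cannot be weighed by their reads.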
